A study of Mus musculus with 18 samples.

Results

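Neuronal precursor (NP) cells with no working copy of Tdg were compared with NP cells that kept 1 copy, on 3 arrays of each genotype, which are 6 of the 18 samples of the series and were taken by their labels. The Tdg-/- and Tdg+/- NP cells came from mouse embryonic stem (ES) cells that had formed embryoid bodies, were given all-trans retinoic acid at 5 µM and were then kept in a medium with N2 supplement. They were collected at day 4. The ES cells of the same 2 genotypes, at day 0 and grown with the cytokine LIF, were measured on 6 further arrays and serve here as the reference for what each probe read before differentiation. Every one of these 12 samples was labelled from 500 ng of total RNA. Since the controls were themselves heterozygous, each difference is one between 1 copy of Tdg and none. The labels used here do not say whether a genotype was a single clone or whether the 3 samples of a group were separate cultures, so the p-values rest on a spread between samples that could be technical.

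The product of Tdg, thymine DNA glycosylase, works in base excision repair. It removes thymine from mispairs with guanine, and it removes the formyl and carboxyl derivatives of cytosine that arise when methylated cytosine is oxidised, so that an unmethylated cytosine can be put back. Mouse embryos without it die before birth. Retinoic acid given to embryoid bodies is a standard way to direct ES cells, which are pluripotent, toward neural precursors, a step in which many promoters and enhancers change their methylation and activity.

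Each probe has an intensity on each array and a detection p-value, which says how often negative control beads were at least as bright. Identifiers and values do not go together in this table. The mean NP level by gene symbol had a Spearman rho of 0.05 with that of the fibroblast arrays over 11865 symbols. Of 77 probes annotated to ribosomal proteins 32.5% were detected on all 6 NP arrays, of 1287 annotated to olfactory receptors 34.7%, and of all probes 33.5%. No gene is therefore named, no sequence is shown, Tdg itself was not checked, and neither the ES nor the NP label was compared with marker genes. A probe is described below by its rank, its level on each array, its detection and its reading in ES cells. A rank is an order by size of change and says nothing of what the probe detects. In RNA from bulk cells, fewer cells of a type and less RNA per cell cannot be told apart.

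A probe counted as detected on an array at a detection p under 0.01. Of 45281 probes, 16978, 16904 and 18062 were detected on the Tdg+/- NP arrays and 16611, 17099 and 17513 on the Tdg-/- ones. The 2 groups overlapped, and the mean counts of 17315 ± 648 and 17074 ± 452 (SD, n = 3) had a two-sided exact permutation p of 0.7, where 3 against 3 allows no less than 0.1. The column headers of the 12 arrays begin with 1 of 2 codes, which are taken here as 2 slides, though no label says so. Slide 1 held Tdg+/- NP replicates 1 and 2 with Tdg-/- replicate 1, and slide 2 held Tdg+/- replicate 3 with Tdg-/- replicates 2 and 3. Over the 19285 probes tested, arrays of one NP genotype correlated with each other at 0.989 to 0.994 and with those of the other genotype at 0.981 to 0.984. The first principal component of the 6 NP arrays, 55.5% of their variance, put all Tdg+/- arrays at 25.1 to 25.6 and all Tdg-/- arrays at -26.0 to -24.0. The second, 16.6%, set Tdg-/- replicate 2 at 26.0 apart from Tdg-/- replicates 1 and 3 at -19.3 and -7.50.

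The first question was how far the genotypes differed in NP cells, and by how much. In Tdg-/- NP cells 1588 probes were higher and 1720 lower, together 3308 of 19285 tested or 17.2% (8.23% higher, 8.92% lower; limma, Benjamini-Hochberg adjusted p under 0.05). Measured changes were mostly under 2-fold. Of the 3308 probes 1523 (46.0%) changed less than 1.5-fold, 1265 (38.2%) between 1.5-fold and 2-fold, 480 (14.5%) between 2-fold and 3-fold, and 40 (1.21%) at least 3-fold, of which 28 fell and 12 rose. The median change was 1.52-fold among rises and 1.54-fold among falls, and the smallest change that passed was 0.24 on the log2 scale.

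Measured differences of at least 2-fold numbered 520, or 2.7% of the tested probes, with 252 rises and 268 falls. Both genotypes were detected on all 3 arrays for 406 of them, 209 rises and 197 falls. In 69 a genotype was detected on some arrays only, and in 45 a genotype was undetected, so that the measured difference is one against background readings; of these 45 the bound defined below reached 2-fold for 7. The count also depended on how background was treated, with 148 probes without correction, 271 with an offset of 50 and 67 in the authors' deposited table of processed values. The 3 arrays of one genotype lay outside the range of the other for every one of these 520 probes, and for 3274 of the 3308, against 32.3% of all tested probes. The calls were made on the same arrays, so nothing is read from this contrast. With slide as a block 3129 probes passed, 1441 higher and 1688 lower. Within slide 1, where 1 Tdg-/- array stood against 2 Tdg+/- arrays, 188 probes passed, and within slide 2, with 1 Tdg+/- array against 2 Tdg-/- arrays, 702 did. These fits have 2 residual degrees of freedom, pooled over the NP and ES groups, and assume that the lone array varies like the others. The near-even split depended on the scaling: with median scaling in place of quantile normalization 776 probes were higher and 1633 lower, so that rises made up 32.2% of changed probes and not 48.0%. The same scaling gave 170 rises and 349 falls of at least 2-fold.

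**Figure D1:**
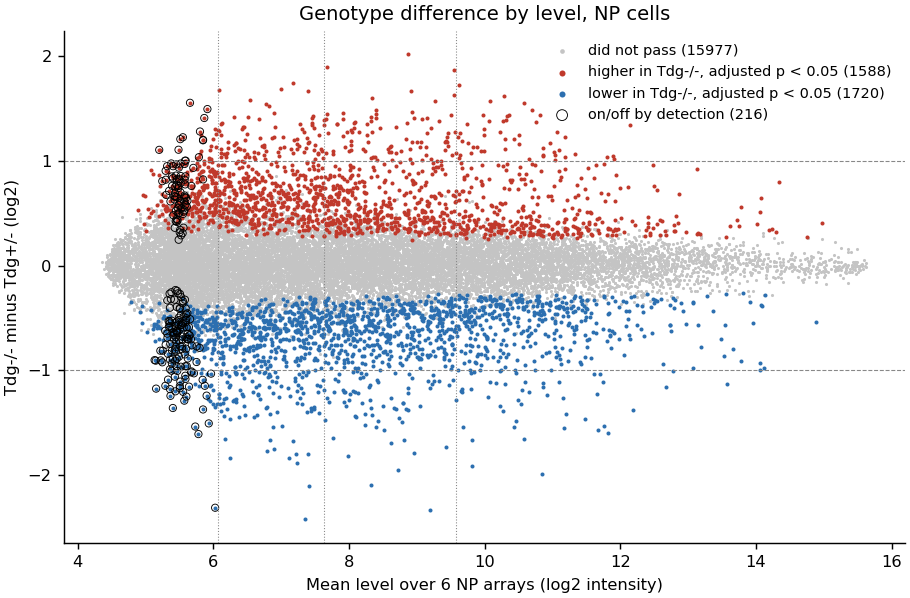
The horizontal axis is the mean level of each tested probe over the 6 NP arrays (log2 intensity) and the vertical axis the Tdg-/- minus Tdg+/- difference (log2). Probes past the test are in red upward (1588) and in blue downward (1720). Rings mark the 216 probes detected on all 3 arrays of 1 genotype and on none of the other. Dashed lines mark 2-fold changes and dotted lines the limits of the 4 level classes; all ringed probes lie in the lowest class, while measured differences of 2-fold and over are found in each class.

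The 5 largest rises were all of probes detected on all 6 NP arrays, and none of the 5 differed between the genotypes in ES cells at the threshold (adjusted p 0.708 to 0.998). The largest rise was from 7.87, 7.95 and 7.77 on the Tdg+/- arrays to 10.10, 9.49 and 10.04 on the Tdg-/- arrays (log2), a 4.04-fold change (log2 2.02 ± 0.15 SE, limma adjusted p = 7.46e-06). This probe was not detected on any ES array, where its means were 4.47 in Tdg+/- and 4.61 in Tdg-/- cells. It was thus read only after differentiation, in both genotypes, and further above background in the Tdg-/- cells. Folds of single probes also depended on how background was treated. This log2 difference was 1.64 without correction and 1.14 in the authors' processed table. The third largest rise was of the same kind, from 8.73, 8.68 and 8.45 to 10.46, 10.34 and 10.65, or 3.64-fold (log2 1.86 ± 0.11 SE, limma adjusted p = 3.04e-06), with no detection on ES arrays.

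The probe with the second largest rise behaved otherwise across the cell types. It read 7.77 ± 0.16 and 7.74 ± 0.04 in Tdg+/- and Tdg-/- ES cells (log2, SD, n = 3). In NP cells it was at 7.10, 6.84 and 6.22 on the Tdg+/- arrays, all below those ES means, and at 8.35, 8.95 and 8.55 on the Tdg-/- arrays, all above them, a 3.73-fold difference (limma adjusted p = 6.74e-05). The fourth largest rise, 3.34-fold, was from 6.38, 6.35 and 6.17 to 7.92, 8.04 and 8.16 in a probe detected on 2 of the 6 ES arrays. The fifth was from 8.76, 8.69 and 8.84 to 10.43, 10.51 and 10.53, or 3.31-fold, in a probe detected on all ES arrays with means of 7.01 in each genotype. Within slide 1 the 5 log2 differences lay between 1.38 and 2.19 and within slide 2 between 1.68 and 2.53.

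Among the 5 largest falls, 2 probes were also lower in Tdg-/- ES cells, and the other 3 did not differ there at the threshold. The largest fall was from 8.85, 8.62 and 8.21 on the Tdg+/- arrays to 6.19, 6.11 and 6.11 on the Tdg-/- arrays, 5.36-fold (log2 -2.42 ± 0.14 SE, limma adjusted p = 2.86e-06). In ES cells the same probe went from 8.84 ± 0.11 to 6.48 ± 0.04 (log2, SD, n = 3), a log2 difference of -2.36, and the NP difference minus the ES difference was -0.07 (limma interaction adjusted p = 0.895). The third largest fall was from 7.11, 7.52 and 6.92 to 4.70, 4.80 and 5.13. It was not detected on any Tdg-/- array of either cell type, so its NP level was at least 3.20-fold lower there (measured means 7.18 and 4.87, limma adjusted p = 1.76e-05), and its ES level at least 2.89-fold lower (measured means 7.22 and 4.82).

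The second largest fall differed between the cell types. It was from 10.38, 10.54 and 10.17 to 8.30, 7.94 and 7.85, 5.04-fold (limma adjusted p = 2.86e-06), while the ES means were 8.97 in Tdg+/- and 9.20 in Tdg-/- cells, and the difference between the cell types was -2.57 on the log2 scale (limma interaction adjusted p = 3.29e-05). Tdg+/- NP cells thus read above ES cells and Tdg-/- NP cells below them. The last 2 of the 5 falls were of probes undetected on every ES array. The fourth was from 8.54, 8.25 and 8.60 to 6.64, 6.37 and 6.06, 4.30-fold, and the fifth from 9.29, 9.59 and 9.25 to 7.38, 7.17 and 7.28, 4.28-fold. In each, all 6 NP arrays were above the ES arrays, with the Tdg-/- ones between ES and Tdg+/- NP levels. The 5 falls had log2 differences of -2.62 to -1.75 within slide 1 and of -2.38 to -1.96 within slide 2.

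**Figure D2:**
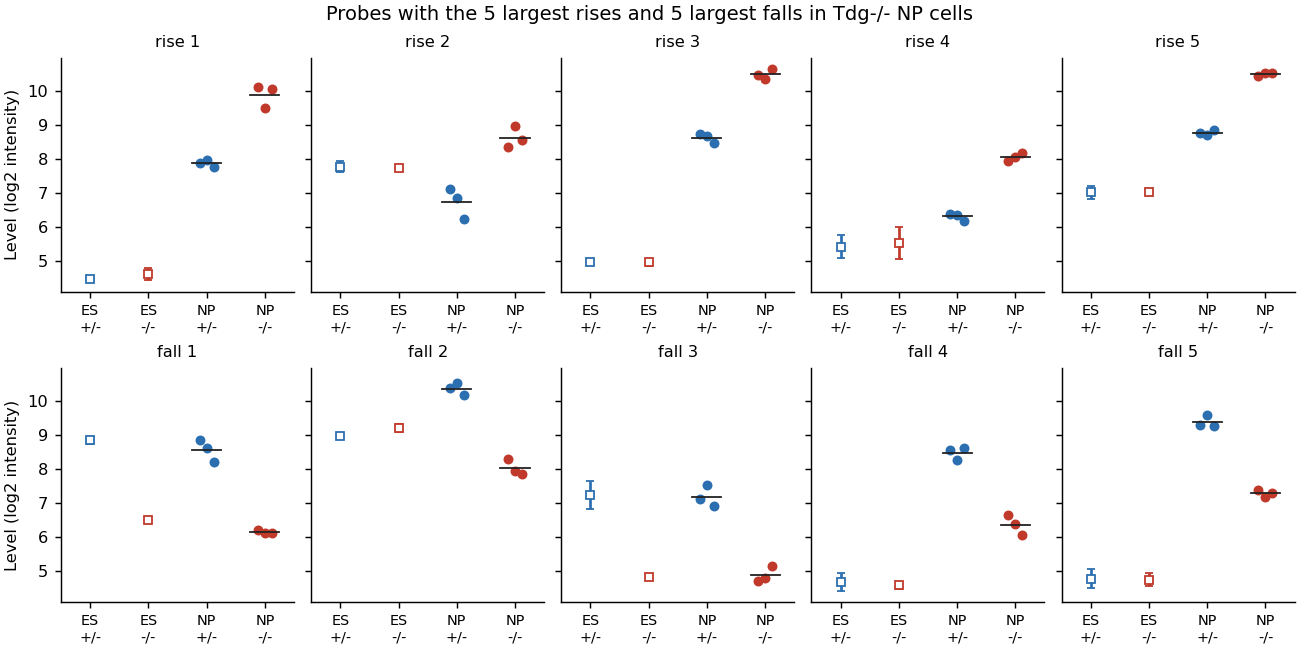
Each panel plots 1 probe, with the level in log2 intensity on the vertical axis and the 4 groups on the horizontal axis; filled circles are single NP arrays with a bar at their mean, open squares are ES means of 3 arrays with their SD, blue for Tdg+/- and red for Tdg-/-. In each panel the NP genotypes do not overlap, which the choice of probes required. In 2 of the falls, the first and the third, the ES genotypes are about as far apart as the NP ones.

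The second question was how the changes were spread over signal level, which reflects both how abundant a transcript is and how brightly its probe reads. The tested probes were cut into 4 classes of equal size by their mean level over the 6 NP arrays, at 6.07, 7.63 and 9.58 (log2). From the lowest class to the highest, 540, 952, 1012 and 804 probes passed, or 11.2%, 19.7%, 21% and 16.7%, against 17.2% of all tested. The size of what passed was smaller at high level. The median absolute log2 change of called probes was 0.67 and 0.68 in the lower 2 classes, 0.59 in the third and 0.48 in the highest. Measured differences of at least 2-fold were found for 71, 194, 158 and 97 probes. Of the 71, 44 were detected on all 3 arrays of 1 genotype and on none of the other. The spread between replicates fell along the same axis: the median SD of the 3 Tdg+/- arrays went from 0.193 through 0.160 and 0.126 to 0.0911, and that of the Tdg-/- arrays from 0.217 to 0.0996. Its part in the sizes was not tested.

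Rises and falls were nearly even at each level, with 49.1%, 50.6%, 46.9% and 45.5% rises from the lowest class up. Under median scaling falls outnumbered rises in every class, at 359 to 203, 521 to 269, 485 to 190 and 268 to 114, and the highest class then held 382 calls. Probes detected on all 6 NP arrays gave 2756 of the calls, 83.3%, and passed in 18.2% of cases. A further 370 calls were of probes detected on some arrays of a genotype but in neither an on nor an off pattern, and 10 were of probes detected on no NP array, for which no fold is given.

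The third question was which probes went from undetected to detected. A probe was counted as on/off where it was detected on all 3 NP arrays of one genotype and on none of the other, and 216 of 45281 probes (0.477%) met this. In Tdg-/- NP cells 80 probes (0.177%) were switched on, undetected on each Tdg+/- array, and 136 (0.300%) were switched off, detected on each Tdg+/- array. More were also off than on at other detection limits. At a p under 0.05 there were 65 on and 167 off, and at a p under 0.001 there were 79 on and 142 off. The larger number switched off still depended on single arrays. Without Tdg+/- replicate 3, the NP array with the most detected probes, 185 were on and 172 off, and without Tdg-/- replicate 1, the one with the fewest, 181 were on and 182 off; without each of the other 4 arrays more were off than on, for instance 105 on and 221 off without Tdg+/- replicate 1. Fewer arrays have to meet the rule in these counts, so they are larger by construction.

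All 216 on/off probes were dim. Each lay in the lowest level class. The rule favours this, since the class is set by the mean of all 6 NP arrays and 3 of them are undetected. In the genotype where they were on, the mean level had a median of 5.84 for those switched on and 5.85 for those switched off. The maxima were 6.66 and 7.18 (log2), above the upper limit of that class at 6.07. Read without normalization, the arrays on which they were on gave intensities of 111 to 301, against array medians of 98.2 to 119 and maxima of up to 55184. All 216 were among the tested probes, since detection on 3 arrays was enough to be tested, and that choice favours a difference; 172 of them, 65 on and 107 off, also passed limma, and the arrays of the genotypes did not overlap in 208. Nothing is read from these shares, because the rule used the same arrays.

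An undetected genotype gives a bound and not a level, so its floor was set on each array at the lowest level among detected probes. Against it the probes switched on were at least 1.30-fold higher at the median and at least 2.29-fold at most, and those switched off at least 1.27-fold lower at the median and at least 3.20-fold at most. The bound reached 2-fold for 2 probes switched on and 5 switched off, and 1.5-fold for 15 and 23. For 2 of those switched off the bound was at or under 1, so they have no fold. All bounds in this report hold only for the background correction used here. The probes with the highest bounds had measured log2 differences of 1.49 (on) and -2.31 (off). Without background correction these were 0.57 and -0.96, each smaller than its bound. On/off changes in NP cells were thus mostly crossings of the detection limit by a narrow margin: with a detection p of at least 0.05 asked of every array counted as off, 12 probes were on and 24 off.

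The probe switched on with the highest bound was at 5.16, 5.27 and 5.07 on the Tdg+/- arrays and 6.61, 6.56 and 6.81 on the Tdg-/- arrays, at least 2.29-fold higher (limma adjusted p = 4.61e-06). Its detection p on the Tdg+/- arrays was 0.0427, 0.0321 and 0.0417, so it was near the limit there. The probe with the largest measured difference among those switched on was at 4.94, 5.04 and 4.66, with detection p-values of 0.0908, 0.0566 and 0.278, and at 6.75, 6.09 and 6.47, at least 1.96-fold higher (limma adjusted p = 4.02e-05). The third of this order was at least 2.15-fold higher, the fourth 1.97-fold and the fifth 1.62-fold. None of the 5 was detected on any ES array. Their log2 differences were 0.89 to 1.76 within slide 1 and 1.17 to 1.63 within slide 2.

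Among the probes switched off, the largest measured difference belonged to the third largest fall given above. The next was at 6.58, 6.51 and 6.66 on the Tdg+/- arrays and at 4.94, 5.00 and 4.98 on the Tdg-/- arrays, at least 2.11-fold lower (limma adjusted p = 3.53e-06). The third went from 6.49, 6.49 and 6.52 to 5.12, 4.97 and 4.81, at least 2.00-fold lower, and the fifth from 6.83, 6.43 and 6.34 to 5.04, 5.22 and 5.22, at least 2.04-fold lower. These 3 were undetected on every ES array. The fourth, at 6.70, 6.84 and 6.51 against 5.16, 5.10 and 5.28, at least 2.27-fold lower, was detected on all 6 ES arrays, at 7.63 ± 0.09 in Tdg+/- and 6.94 ± 0.16 in Tdg-/- ES cells (log2, SD, n = 3). The log2 differences of the 5 were -2.62 to -1.37 within slide 1 and -1.96 to -1.12 within slide 2.

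The limit itself cut through a continuum. The highest detection p counted as on was 0.00962, shared by 24 of the 216 probes, and the lowest counted as off was 0.0107, shared by 27. Among the 24, the probe with the largest difference had this p on Tdg-/- replicate 1, at a level of 5.64, and 0 on the other Tdg-/- arrays, at 6.13 and 6.59. Just outside the rule were 162 probes detected on 3 Tdg-/- arrays and 1 Tdg+/- array, 232 with 3 Tdg+/- arrays and 1 Tdg-/- array, 187 with 2 Tdg-/- arrays and no Tdg+/- array, and 220 with the reverse. One of them was detected on Tdg+/- replicate 3 with a p of 0.00962 and read 5.29, 5.08 and 5.37 on the Tdg+/- and 6.69, 7.09 and 6.99 on the Tdg-/- arrays, a larger separation than that of any probe switched on.

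**Figure D3:**
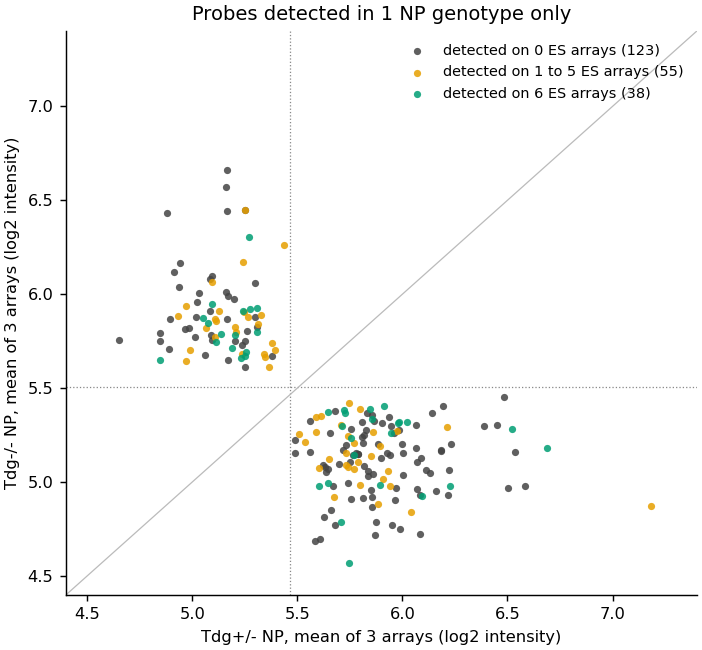
Each point is 1 of the 216 on/off probes, with its mean over the 3 Tdg+/- NP arrays on the horizontal axis and over the 3 Tdg-/- NP arrays on the vertical axis (log2 intensity), coloured by the number of ES arrays on which it was detected; dotted lines are the mean floor of each genotype's arrays and the grey line is equality. The points cluster near the corner where the floors cross. Of the 216, 123 were undetected on every ES array, beside 26348 of all 45281 probes.

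The fourth question was whether the NP changes concerned transcripts already read in ES cells. Of the probes switched on, 39 of 80 (48.8%) were undetected on all 6 ES arrays, 25 were detected on 1 to 5 and 16 (20%) on all 6. Of those switched off, 84 of 136 (61.8%) were undetected in ES cells, 30 were detected on 1 to 5 arrays and 22 (16.2%) on all 6. The 84 were thus read in Tdg+/- NP cells and in no other group, and the 16 were read in both ES genotypes and in Tdg-/- NP cells but not in Tdg+/- NP cells. Of all 45281 probes, 26348 were undetected on every ES array, 4396 were detected on 1 to 5 and 14537 on all 6. Lack of detection in ES cells is therefore not read as a trait of the on/off probes. Applied to ES cells, the same rule found 24 probes switched on and 104 switched off, 0.053% and 0.23% of all probes. Of the NP probes 1 of the 80 switched on (1.25%) and 2 of the 136 switched off (1.47%) were among them, which is 4.17% and 1.92% of the ES probes, and none was switched the opposite way.

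Among all tested probes, 668 of the 1597 undetected on every ES array passed in NP cells (41.8%), 348 of the 3151 detected on 1 to 5 (11%) and 2292 of the 14537 detected on all 6 (15.8%). A probe undetected in ES cells could be tested only through NP arrays, which favours a difference. The shares are therefore also given for probes detected on all 6 NP arrays, a condition that takes no side between genotypes. There 396 of 844 probes undetected in ES cells passed (46.9%), 222 of 1217 detected on 1 to 5 ES arrays (18.2%) and 2138 of 13096 detected on all 6 (16.3%), beside the 17.2% of all tested. At least 2-fold changes made up 16.9%, 5.51% and 1.50% of these classes. Thus transcripts read in NP cells of both genotypes but not in ES cells differed by genotype more often and by more, with a median absolute log2 difference of 0.418 over all 844 against 0.156 over the 13096; the gap between classes was described and not tested.

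The split by ES detection was present at each level. The probes undetected in ES cells were dimmer in NP cells, with a median of 6.65 against 8.78 (log2), and within each level class their share was the higher one. It was 17 of 150 (11.3%) against 25 of 349 (7.16%) in the lowest class, 243 of 511 (47.6%) against 516 of 3463 (14.9%) in the second, 109 of 150 (72.7%) against 830 of 4515 (18.4%) in the third, and 27 of 33 (81.8%) against 767 of 4769 (16.1%) in the highest. Their spread between replicates was also the larger one, with a median SD of 0.157 in Tdg+/- and 0.176 in Tdg-/- NP cells against 0.117 and 0.129. The test itself used a spread pooled with the ES arrays, on which these probes read background. With the NP arrays normalized and fitted alone, 42.4% of the probes undetected in ES cells passed and 11.2% of those detected on all ES arrays. The changes went both ways: of the 396, 204 were higher and 192 lower in Tdg-/- cells. With median scaling 356 passed, 152 higher and 204 lower, and 1223 of the probes detected on all ES arrays, 317 higher and 906 lower. With slide as a block the shares were 45.7% and 15.2%, and without any 1 NP array they lay between 38.9% and 43.4% for probes undetected in ES cells and between 11.9% and 14.4% for those detected on all ES arrays.

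**Figure D4:**
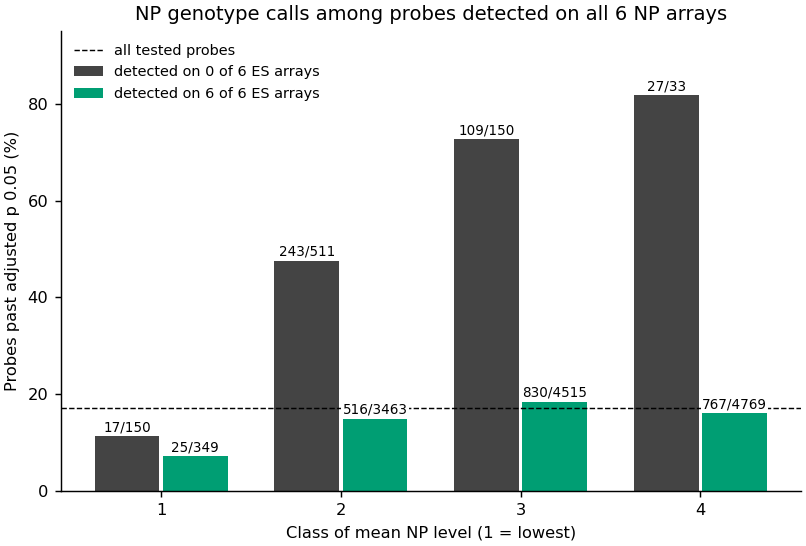
Bars give the percentage of probes past adjusted p 0.05 in NP cells on the vertical axis, by class of mean NP level on the horizontal axis, among probes detected on all 6 NP arrays; dark bars are probes undetected on every ES array and green bars probes detected on all 6, with called and total probes above each bar. The dashed line is the 17.2% of all tested probes, and the dark bar is the taller one in each class.

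The last comparison asked whether the genotype difference in NP cells was the one already present in ES cells. The NP and ES differences come from separate arrays, which share slides, normalization and the estimate of spread. Across the 19285 tested probes they correlated at 0.08, given as a description over probes, which are not independent replicates. In ES cells 638 probes (3.31%) passed, and 240 passed in both cell types. These were 7.26% of the NP calls, beside the 3.31% of all tested probes that passed in ES cells. They were 37.6% of the ES calls, beside the 17.2% of all tested probes that passed in NP cells. These gaps were not tested. Of the 240, 132 had the same direction and 108 the opposite one. Over all tested probes 55.2% had the same direction, so nothing is read from this split. The median SD within groups was close, 0.159 in NP and 0.145 in ES cells. Of the 520 probes changed at least 2-fold in NP cells, 12 rises and 17 falls also passed in the same direction in ES cells and 14 rises and 10 falls in the opposite one. The ES difference was under 0.5 in size (log2) for 214 of 252 rises and 233 of 268 falls. It was also under 0.5 for 3055 of all 3308 NP calls, and its median size over all tested probes was 0.131. Small ES differences are therefore not particular to the 520.

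The genotype difference itself differed between NP and ES cells for 2015 of the 19285 probes (10.4%; limma interaction, Benjamini-Hochberg adjusted p under 0.05), 1051 more positive and 964 more negative in NP cells. Of the 3308 NP calls 1608 passed this test (48.6%), 816 rises and 792 falls, and of the 520 at least 2-fold changes 457 did. The NP difference that selected these probes is part of the tested contrast. That favours a pass, so nothing is read from how far these shares exceed the 10.4%. For the other 1700 NP calls a difference between the cell types was not shown, which does not show that they were alike. On probes undetected in ES cells the ES difference is one between background readings, and 263 of the 844 such probes detected on all NP arrays passed the interaction test.

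Measured differences of at least 2-fold in the same direction in both cell types were found for 12 probes, which were singled out after their values were seen. In this set 4 fell and 8 rose, and 7 were detected on all 12 arrays. One of the rises was undetected on every Tdg+/- ES array, where its bound was at least 1.45-fold. Of the falls, 2 are the first and the third of the largest given above. Another probe, detected on every Tdg+/- array of both cell types, went from 7.24, 7.11 and 7.14 to 5.04, 5.42 and 5.50 in NP cells and from a mean of 7.97 to 5.72 in ES cells; it was detected on 1 of the 3 Tdg-/- arrays in each cell type, so no fold is given. The fourth fell from 11.02, 10.81 and 10.87 to 9.46, 9.74 and 9.47 in NP cells (2.54-fold) and from 9.29 to 8.27 in ES cells. The 8 rises had measured log2 differences of 1.04 to 1.33 in NP cells and of 1.02 to 1.53 in ES cells; in 3 of them the Tdg+/- arrays were detected only in part or, in ES cells, not at all. The largest was from 5.98, 6.66 and 6.11 to 7.68, 7.36 and 7.69 in NP cells and from a mean of 6.31 to 7.84 in ES cells. None of the 12 passed the limma interaction test (adjusted p 0.226 to 0.946). They were chosen for like differences in both cell types, which favours this outcome, so nothing is read from it.

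**Figure D5:**
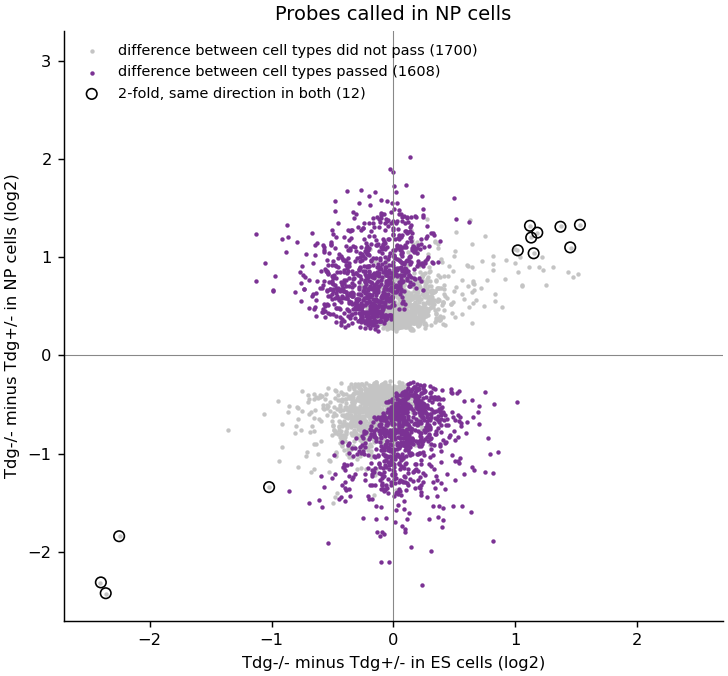
Each point is 1 of the 3308 probes called in NP cells, with the Tdg-/- minus Tdg+/- difference in ES cells on the horizontal axis and in NP cells on the vertical axis (log2); purple points passed the test of the difference between cell types (1608) and rings mark the 12 probes with measured differences of at least 2-fold in the same direction in both. Most points lie near 0 on the horizontal axis, and 3 rings lie apart at the lower left, where both differences are near or below -2.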

How the data were processed

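RNA of 12 ES and NP samples was read on Illumina arrays. The deposited intensities carry no normalization, and per the file headers each has a detection p-value. GenomeStudio, lumi 1.10.1 and limma 2.16.4 appear in the submitters' processing notes, in no stated order. A deposited table of processed log2 values of the same arrays, whose transform and centring stay unknown, served as an alternative, and the deposited log2 values of the fibroblast arrays only to check the names. The number of arrays limits the precision.

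Background was removed by normexp in limma 3.58.1 (R 4.3.3), fitted from the detection p-values, with an offset of 16, and quantile normalized over the 12 arrays. Probes with a detection p under 0.01 on at least 3 of 12 arrays were tested, in a 4-group model (lmFit, eBayes) with Benjamini-Hochberg adjustment over all 19285 and a threshold of 0.05. Probes described singly were the 5 largest rises and falls among changed probes whose genotypes did not overlap, the 5 largest differences among on/off probes in each direction, and those nearest the detection limit. The comparison, its classes and this rule were chosen with earlier results of these data known. The alternatives were other background corrections, normalizations and filters, the NP arrays alone, blocks for slide and replicate number, other detection limits and leaving out each NP array. Scripts were tested on simulated data. No 2 arrays held identical values.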

Additional observations from a re-analysis of the deposited data

Results flagged for a closer look

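The genotype difference differed between NP and ES cells for 2015 probes by the limma interaction test. Of the 19 separate probes described by rank, 17 were among them, beside 10.4% of all tested probes. They were chosen for a large NP difference, which is part of this contrast and favours a pass. Nothing is therefore read from that share. The NP difference minus the ES difference is given here on the log2 scale. It was 1.88, 1.93, 1.87, 1.64 and 1.72 for the 5 largest rises in order. It was -2.57, -2.00 and -2.06 for the largest falls other than the first and the third. For the 5 probes switched on it was 1.57, 1.49, 1.22, 1.35 and 1.23, and for the probes switched off after the first -1.73, -2.10, -0.81 and -1.48. In each of these 9 on/off probes 1 NP genotype was undetected, and in 8, all but the fourth switched off, every ES array was too, so their values are differences of measured readings that lie partly at background and give no fold.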

How the results depend on the processing

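The called probes that were tested kept their direction under each alternative run; since 3274 of the 3308 had genotypes that do not overlap, leaving out arrays could not turn these. The number of calls lay between 2409 and 3789 except within single slides (188 and 702). At least 2-fold calls, 520 over all arrays, were 188 on slide 1, 196 among probes detected on all 12 arrays, 148 without background correction, 271 with an offset of 50 and 67 in the authors' processed table. Interaction calls were 1226 with median scaling, 1342 among probes detected on all 12 arrays, and 0 on either slide alone by limma, where 2685 and 2722 probes had an unadjusted p under 0.05. Median scaling left 382 calls in the highest level class and 1223 among probes detected on all NP and all ES arrays. On/off probes were 36 with a detection p of at least 0.05 on the off side, 44 when also past adjusted p 0.05 and 2-fold, and 326 to 363 without any 1 array. Of 384 values of the described probes under alternatives, 380 kept direction and call. The other 4 were on slide 1 alone and kept direction only. The third largest fall is also the first probe switched off and is counted under both ranks. All were chosen for large differences on these same arrays, which favours a kept direction. Nothing is therefore read from this count. The sizes of the described probes did depend on how background was treated. Each was smaller without correction and smaller again in the authors' processed table, whose transform is unknown. The largest fall, -2.42 on the log2 scale, was -1.48 without correction and -0.75 in that table. Same-numbered NP replicates did not deviate together (correlations -0.07 to 0.01). With so few replicates this cannot show whether the numbers pair the samples. With the replicate block 2630 probes passed, 1216 higher and 1414 lower, 519 changed at least 2-fold and 1435 passed the interaction test. Detection p-values moved in steps of 0.00107, which limits how finely on and off can be set.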

Other observations

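The on/off rule applied to ES cells gave probes that could be followed into NP cells. Of the 104 probes read in all Tdg+/- and no Tdg-/- ES arrays, 48 were detected on all 6 NP arrays and 19 on none, and 10 (9.62%) were lower in Tdg-/- NP cells by limma, against 8.92% of all tested probes. Of the 24 read in all Tdg-/- and no Tdg+/- ES arrays, 6 were detected on all 6 NP arrays and 11 on none, and 5 (20.8%) were higher in Tdg-/- NP cells, against 8.23%; the difference in share was not tested.

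A single probe, chosen after its values were seen, had measured differences of at least 2-fold in opposite directions in the cell types. It rose from 8.95, 8.76 and 8.78 to 9.91, 10.22 and 10.05 in Tdg-/- NP cells (log2), 2.35-fold (limma adjusted p = 2.3e-05). In ES cells it was at 5.74 ± 0.12 in Tdg+/- cells and at 4.61 ± 0.12 in Tdg-/- cells (log2, SD, n = 3), where it was detected on 2 arrays and on none, so that its ES level was at least 1.04-fold lower in Tdg-/- cells and no 2-fold ES change is shown.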
